A study of Homo sapiens with 2 samples.

Results

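Small nucleolar RNA (snoRNA) host genes were examined as targets of PRMT6 and PARP1 in MDA-MB-231 cells. They were the RefSeq genes of the GRCh38 annotation with a symbol of SNHG and a number, plus GAS5 and ZFAS1, which gave 31 genes among 12903 long noncoding RNA (lncRNA) genes with a known strand. All 31 are lncRNA genes. A promoter peak was a peak of the deposited lists with any base within 3 kb of the 5′ end of the gene record. Of the 31 host genes, 11 had promoter peaks in both lists, 1 had a PRMT6 peak only, 3 had a PARP1 peak only and 16 had none.

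A snoRNA is a short nuclear RNA that pairs with a target RNA and directs proteins to modify it. C/D snoRNAs guide ribose methylation and H/ACA snoRNAs guide pseudouridylation, mostly of ribosomal RNA, while small Cajal body RNAs (scaRNAs) guide the same changes on the RNAs of the spliceosome. In human cells most of them lie in introns of longer genes and are cut out after splicing of the host transcript. The spliced RNA of a noncoding host often has no known function, and many hosts share with ribosomal protein genes a start site that opens with a C and a run of pyrimidines, a feature of transcripts whose translation follows cell growth.

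Chromatin came from untreated MDA-MB-231, a human cell line established from triple-negative breast cancer. A library was made with an antibody against PRMT6, an arginine methyltransferase, and another with an antibody against PARP1, which attaches ADP-ribose to proteins. The method was CUT&Tag, in which the antibody brings a transposase to its target so that nearby DNA is cut and tagged for sequencing, although the labels also describe ligated ChIP libraries. No other genotype, agent or time was compared. The PRMT6 list held 9080 peaks and the PARP1 list 11651, and their read depth was not given in the lists. Positions are given on GRCh38, which the listed peaks fit, although the submitters' processing notes name hg19. Widths and overlaps are the listed end minus the listed start, and whether starts count from 0 or 1 was not settled, so that a start, and a count of bases in a peak, may be off by 1. With 1 library per antibody there is no replicate check and no test between antibodies, so the values describe these libraries, and the 95% exact binomial intervals cover counting error only.

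PRMT6 promoter peaks were found at 12 of the 31 host genes, a share of 38.7% (95% interval 21.8% to 57.8%), against 8.27% of all lncRNA genes and 18.3% of all 19715 protein-coding genes. PARP1 promoter peaks were found at 14 host genes (45.2%, 27.3% to 64.0%), against 10.5% of lncRNA genes and 22.5% of protein-coding genes. Both peaks were present at 11 host genes (35.5%, 19.2% to 54.6%), against 5.66% of lncRNA genes and 13.4% of protein-coding genes. The lower bounds for the host genes lay above the background shares of both classes for each list and for both lists together. Of the 12 host genes with a PRMT6 peak, 11 (91.7%) also had a PARP1 peak, and 11 of the 14 with a PARP1 peak (78.6%) had a PRMT6 peak. Over lncRNA genes these shares were 68.4% and 53.6%, and over protein-coding genes 73.2% and 59.5%. Over protein-coding genes that hold a snoRNA they were 73.9% and 60.7%. Over 20 genes for proteins and assembly factors of snoRNA particles both were 88.9%. The host gene shares rest on 12 and 14 genes, and these differences were not tested.

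**Figure D1:**
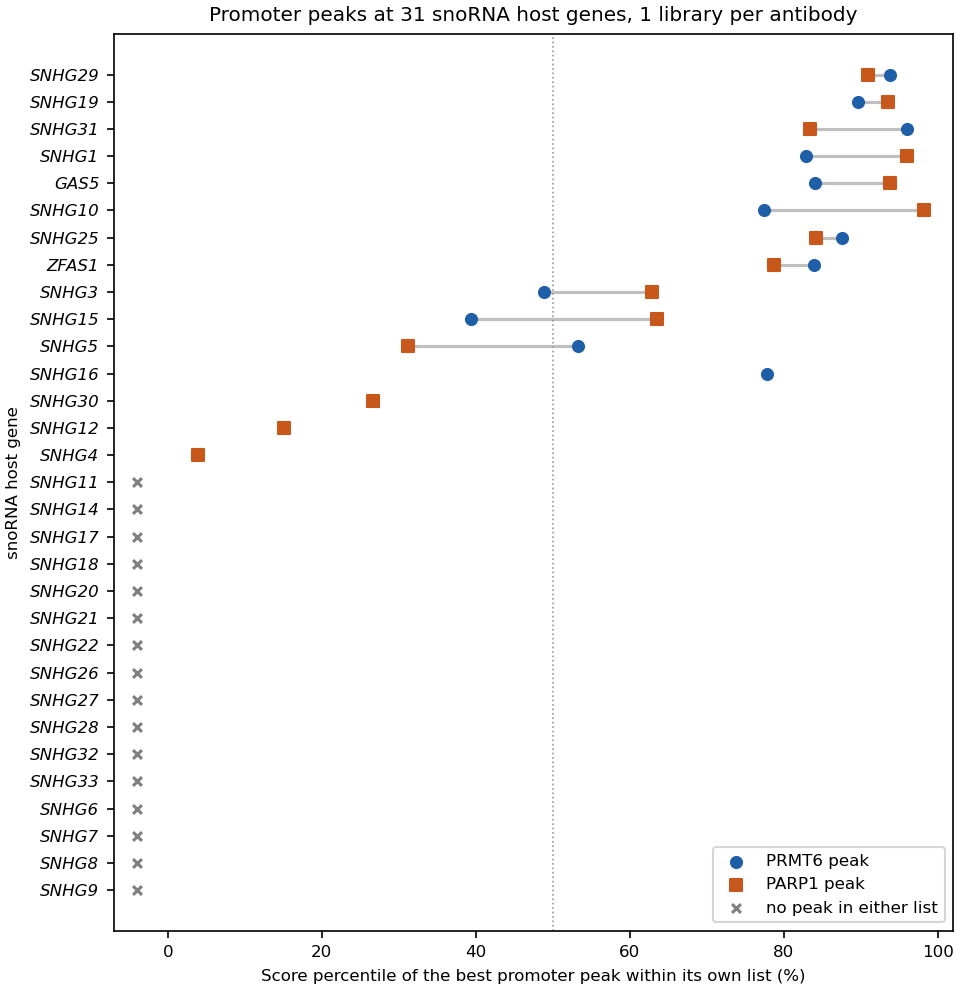
Score percentile of the best promoter peak of each of the 31 snoRNA host genes within its own list, in percent, with 1 row per gene, circles for PRMT6, squares for PARP1, grey lines joining both peaks of a gene and crosses left of 0 for the 16 genes without a peak; the dotted line marks 50. The 8 uppermost genes, from SNHG29 to ZFAS1, lie at 77.4 or higher in both lists, and the PARP1 peaks without a PRMT6 partner (SNHG30, SNHG12 and SNHG4) lie at 26.7 or lower.

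Each peak has a score on the −log10 p scale of the peak calling, which was used here only to rank peaks within a list. A score percentile is the share of peaks of the same list with a lower score. Over the 12 host genes with a PRMT6 peak the median percentile was 83.4, against 66.9 for lncRNA genes and 71.8 for protein-coding genes with a PRMT6 promoter peak. Over the 14 with a PARP1 peak it was 81.1, against 60.0 and 62.3. For protein-coding genes that hold a snoRNA the medians were 76.9 for PRMT6 and 59.1 for PARP1. The lower and upper quartiles of the host genes were 71.4 and 88.1 for PRMT6 and 39.1 and 92.9 for PARP1. These ranges include the median of protein-coding genes in each list, and no difference in percentile was tested. In the plot of score percentiles, 8 host genes lie at 77.4 or higher in both lists, and these are called the stronger set, a group chosen after the values were seen.

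The stronger set held 5 hosts of C/D snoRNAs only. SNHG29, which holds the records of SNORD49A, SNORD49B and SNORD65, had the best mean rank, with a PRMT6 peak ranked 556 (score 12.86) and a PARP1 peak ranked 1051 (score 12.74). SNHG19, the host of SNORD60, followed with ranks of 928 (score 10.66) and 755 (score 14.54). Ranks start at the highest score, and both genes lay at a percentile of 89.7 or higher in each list. At SNHG1, whose 8 C/D records are SNORD22 and SNORD25 to SNORD31, the PRMT6 peak ranked 1543 (score 8.71) and the PARP1 peak 460 (score 16.94). SNHG25, the shortest host record at 340 bp, holds SNORD104 and had a PRMT6 peak ranked 1128 (score 9.94) and a PARP1 peak ranked 1827 (score 10.52). At ZFAS1, the host of SNORD12, SNORD12B and SNORD12C and a regulator of mammary development in mice, the ranks were 1460 (score 8.93) and 2466 (score 9.31). The order of these genes by PRMT6 rank was not that by PARP1 rank, with SNHG29 first for PRMT6 and SNHG1 first for PARP1.

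Of the other 3 strong genes, GAS5 holds mostly C/D records, and SNHG10 and SNHG31 hold other kinds only. GAS5, a transcript known to accumulate in growth-arrested cells, holds 11 records, of which 10 are C/D and 1 is H/ACA, and its peaks ranked 1446 for PRMT6 (score 8.97) and 718 for PARP1 (score 14.85). SNHG10, the host of SCARNA13, had the highest-ranked PARP1 peak of any host gene, at 213 (score 20.82), while its PRMT6 peak ranked 2047 (score 7.75). SNHG31, which holds SNORA70I, had the highest-ranked PRMT6 peak of any host gene, at 357 (score 15.12), while its PARP1 peak ranked 1925 (score 10.28). The percentiles of these genes differed in opposite directions, with 77.4 for PRMT6 against 98.2 for PARP1 at SNHG10 and 96.1 against 83.4 at SNHG31.

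Weaker peaks of both lists were found at 3 host genes. SNHG3, which holds SNORA73A and SNORA73B, had a PRMT6 peak ranked 4600 (score 5.37) and a PARP1 peak ranked 4307 (score 7.42). SNHG15, the host of SNORA9, had ranks of 5468 (score 5.10) and 4226 (score 7.46), and its PRMT6 peak had the smallest width of that list, 288 bp. At SNHG5, which holds SNORD50A and SNORD50B, the PRMT6 peak ranked 4181 (score 5.55) and the PARP1 peak 7982 (score 5.47). Each of the 3 genes had 1 score above and 1 below the list medians, which were 5.51 for PRMT6 and 6.48 for PARP1. The PRMT6 and PARP1 peaks ran from 28505713 to 28506018 and from 28505668 to 28506060 on chromosome 1 at SNHG3, and from 44986454 to 44986742 and from 44986628 to 44986943 on chromosome 7 at SNHG15. At SNHG5 they ran from 85678685 to 85679302 and from 85678807 to 85679402 on chromosome 6, where the PARP1 peak ended 74 bp upstream of the 5′ end.

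Peaks of a single list were found at 4 host genes. SNHG16, with SNORD1A, SNORD1B and SNORD1C, had a PRMT6 peak over its 5′ end ranked 1986 (chromosome 17, 76557439 to 76557905, score 7.90), and the nearest PARP1 peak lay 16623 bp upstream. SNHG30, the host of SNORD7, had a PARP1 peak over its 5′ end ranked 8457 (chromosome 17, 35567804 to 35568225, score 5.26). SNHG12, with SNORD99 and 3 H/ACA records, had a PARP1 peak ranked 9876 (score 4.65). SNHG4, with SNORA74A and SNORA74D, had a PARP1 peak ranked 11193 of 11651 (chromosome 5, 139273438 to 139273638, score 4.03), which lay 463 bp away on the upstream side and had the smallest width of its list, 200 bp. The single PRMT6 peak lay at percentile 77.9 of its list, whereas the single PARP1 peaks lay at 26.7 or lower. Absence of a partner peak means only that none was listed at the threshold used for peak calling.

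Among the 11 host genes with both peaks the PARP1 percentile was the higher at 6 and the PRMT6 percentile at 5. Over all 3366 lncRNA and protein-coding genes with both, it was higher for PARP1 at 44.4%. The PRMT6 and PARP1 peaks overlapped at all 11 genes, by 114 bp (SNHG15) to 629 bp (ZFAS1) with a median of 431 bp. At 10 of the 11 the shared stretch made up at least 50% of the longer peak, and SNHG15 was the exception at 36.2%. No such overlap is given here for other genes with both peaks, so these values are not a trait particular to host genes.

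**Figure D2:**
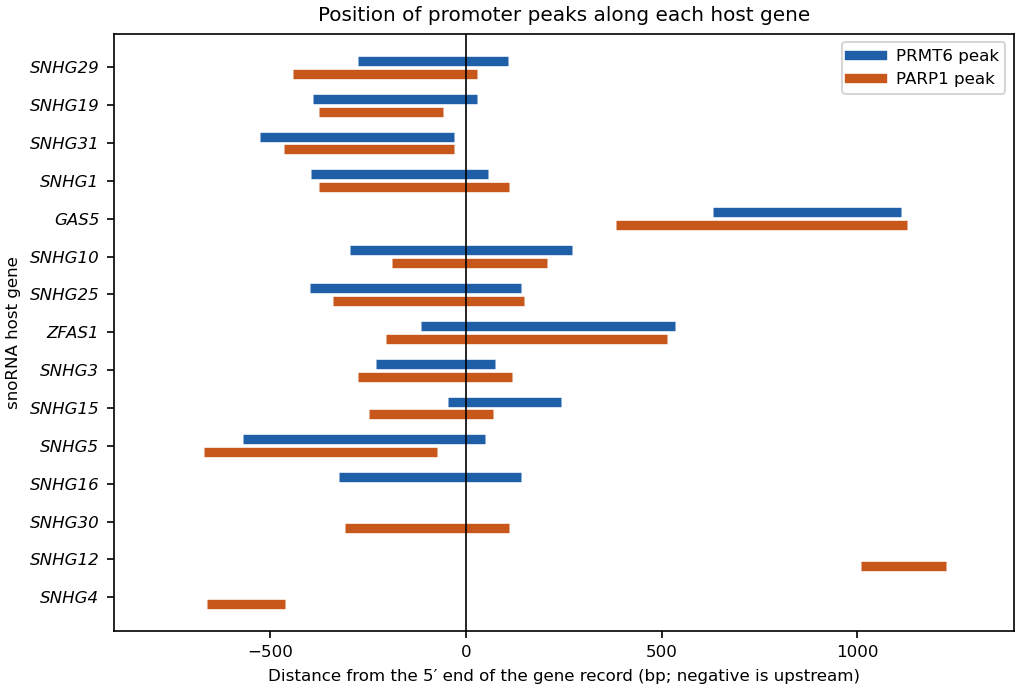
Extent of each promoter peak along its host gene, in bp from the 5′ end of the gene record, with negative values upstream, PRMT6 bars above PARP1 bars and 1 row for each of the 15 host genes with a peak. Most bars cross the line at 0 or end just upstream of it, and the bars of GAS5 and the PARP1 bar of SNHG12 lie downstream.

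Most peaks sat at the 5′ ends themselves. Of the 12 PRMT6 peaks, 10 spanned the 5′ end (83.3%), against 42.5% of the best promoter peaks of lncRNA genes and 55.2% of those of protein-coding genes. Of the 14 PARP1 peaks, 8 spanned it (57.1%), against 35.2% and 44.7%. Peak centres within 500 bp of the 5′ end made up 91.7% for PRMT6, against 62.3% at lncRNA and 78.4% at protein-coding genes. For PARP1 they made up 78.6%, against 62.5% and 78.1%, so host and protein-coding genes were alike by that measure. These shares rest on 12 and 14 peaks, and the differences were not tested. Peak centres lay upstream of the 5′ end at 9 of 12 host genes for PRMT6, with a median offset of −87.8 bp, and at 10 of 14 for PARP1, with a median offset of −97.5 bp, where negative values are upstream. Median widths at host genes were 474 bp (PRMT6) and 427 bp (PARP1), against 380 bp and 303 bp at protein-coding genes with a promoter peak.

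At SNHG1 the PRMT6 peak ran from 62855830 to 62856282 and the PARP1 peak from 62855774 to 62856261 on chromosome 11. At SNHG29 they ran from 16438712 to 16439095 and from 16438546 to 16439014 on chromosome 17. At SNHG10 they ran from 95534601 to 95535169 and from 95534666 to 95535062 on chromosome 14. At SNHG25 they ran from 64145572 to 64146111 and from 64145631 to 64146118 on chromosome 17. All of these span the 5′ end of the host gene. At SNHG19 the PRMT6 peak (chromosome 16, 2155329 to 2155749) spanned it, and the PARP1 peak (2155417 to 2155734) ended 59 bp upstream. The SNHG31 peaks (chromosome 2, 214809702 to 214810198 and 214809765 to 214810198) ended on the same base, 31 bp upstream of the 5′ end.

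Peaks at GAS5 and SNHG12 were the exceptions in position. The GAS5 peaks (chromosome 1, PRMT6 173867932 to 173868414, PARP1 173867919 to 173868661) began 631 bp and 384 bp inside the gene record and covered the 5′ end of ZBTB37, a zinc finger gene that starts on the opposite strand 963 bp inside the GAS5 record. The RefSeq promoter sequence of ZBTB37 uses another start, at 173868380, and both peaks span both positions. The PARP1 peak at SNHG12 (chromosome 1, 28581755 to 28581973) lay 1010 bp inside the record. In the RefSeq promoter sequences the start of SNHG12 is placed 1110 bp downstream of the 5′ end of the record, at 28581873, and the peak spans that position. For ZFAS1 this start is 464 bp downstream of the 5′ end of the record, at 49278642, and both peaks (chromosome 20, 49278063 to 49278711 and 49277974 to 49278692) span both positions.

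Promoter sequences are shown for the 7 host genes with both peaks, the best mean ranks and a promoter sequence that the peaks reach. Each is the RefSeq sequence of GRCh38.p14 from 250 bases before the start site to 50 bases from it, 5′ to 3′ on the strand of the gene, with the bases that lie in both a PRMT6 and a PARP1 peak in capitals.
SNHG29 (chr17:16438737-16439036, plus strand): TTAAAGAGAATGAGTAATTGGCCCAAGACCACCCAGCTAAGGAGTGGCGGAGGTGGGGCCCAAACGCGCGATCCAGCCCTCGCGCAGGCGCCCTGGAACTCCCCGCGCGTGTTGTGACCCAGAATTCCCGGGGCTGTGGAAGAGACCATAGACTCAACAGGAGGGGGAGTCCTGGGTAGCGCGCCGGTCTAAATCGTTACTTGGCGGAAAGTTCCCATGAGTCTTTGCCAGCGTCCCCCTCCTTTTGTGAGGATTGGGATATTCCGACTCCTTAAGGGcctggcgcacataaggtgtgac
SNHG19 (chr16:2155309-2155608, minus strand): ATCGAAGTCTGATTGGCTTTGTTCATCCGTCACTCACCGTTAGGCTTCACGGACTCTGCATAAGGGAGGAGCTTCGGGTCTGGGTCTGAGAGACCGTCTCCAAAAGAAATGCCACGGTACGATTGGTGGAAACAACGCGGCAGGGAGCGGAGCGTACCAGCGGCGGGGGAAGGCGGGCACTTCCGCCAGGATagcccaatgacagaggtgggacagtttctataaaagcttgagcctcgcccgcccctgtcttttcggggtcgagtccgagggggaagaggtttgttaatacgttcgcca
SNHG1 (chr11:62855836-62856135, minus strand): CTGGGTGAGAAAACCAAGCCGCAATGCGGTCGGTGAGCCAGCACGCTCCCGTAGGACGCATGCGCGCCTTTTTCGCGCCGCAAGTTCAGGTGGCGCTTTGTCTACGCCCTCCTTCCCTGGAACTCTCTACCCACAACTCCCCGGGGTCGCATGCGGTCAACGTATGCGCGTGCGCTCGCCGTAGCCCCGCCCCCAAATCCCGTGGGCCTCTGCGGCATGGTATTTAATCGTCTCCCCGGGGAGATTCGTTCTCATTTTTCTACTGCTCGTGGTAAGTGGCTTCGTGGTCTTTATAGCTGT
SNHG10 (chr14:95534823-95535122, minus strand): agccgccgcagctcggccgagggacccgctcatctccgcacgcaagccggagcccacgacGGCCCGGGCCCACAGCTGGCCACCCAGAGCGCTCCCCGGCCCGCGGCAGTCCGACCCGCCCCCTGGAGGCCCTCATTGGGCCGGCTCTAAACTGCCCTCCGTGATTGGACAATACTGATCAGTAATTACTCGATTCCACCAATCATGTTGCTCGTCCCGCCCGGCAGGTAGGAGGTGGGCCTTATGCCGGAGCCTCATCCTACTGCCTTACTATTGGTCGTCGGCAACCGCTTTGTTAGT
SNHG31 (chr2:214809979-214810278, plus strand): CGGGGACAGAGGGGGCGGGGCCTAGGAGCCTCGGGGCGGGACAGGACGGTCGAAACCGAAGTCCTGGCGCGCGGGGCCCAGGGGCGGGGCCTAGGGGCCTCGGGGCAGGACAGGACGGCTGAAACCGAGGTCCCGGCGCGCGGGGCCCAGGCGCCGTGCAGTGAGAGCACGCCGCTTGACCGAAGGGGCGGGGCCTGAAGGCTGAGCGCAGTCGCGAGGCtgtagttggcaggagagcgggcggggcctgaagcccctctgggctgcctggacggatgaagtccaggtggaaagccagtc
ZFAS1 (chr20:49278392-49278691, plus strand): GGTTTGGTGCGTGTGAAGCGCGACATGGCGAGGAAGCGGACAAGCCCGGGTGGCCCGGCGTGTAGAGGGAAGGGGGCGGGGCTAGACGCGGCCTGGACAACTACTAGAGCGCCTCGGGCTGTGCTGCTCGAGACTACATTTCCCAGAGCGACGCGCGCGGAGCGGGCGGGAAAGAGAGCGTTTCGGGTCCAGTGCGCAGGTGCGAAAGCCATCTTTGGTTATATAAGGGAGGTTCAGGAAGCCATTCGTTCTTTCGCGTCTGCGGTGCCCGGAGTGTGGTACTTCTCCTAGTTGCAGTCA
SNHG3 (chr1:28505693-28505992, plus strand): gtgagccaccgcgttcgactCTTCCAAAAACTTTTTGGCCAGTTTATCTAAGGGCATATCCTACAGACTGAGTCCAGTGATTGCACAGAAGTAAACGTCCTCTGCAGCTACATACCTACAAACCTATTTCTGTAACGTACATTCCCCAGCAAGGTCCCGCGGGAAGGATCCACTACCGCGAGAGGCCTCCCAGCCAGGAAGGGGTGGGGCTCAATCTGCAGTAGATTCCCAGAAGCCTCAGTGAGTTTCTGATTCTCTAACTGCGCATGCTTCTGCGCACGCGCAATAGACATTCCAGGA

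The capitals cover all 300 bases at SNHG1 and ZFAS1, 280 at SNHG3, 278 at SNHG29, 240 at SNHG10, 220 at SNHG31 and 192 at SNHG19. At SNHG19 the shared stretch ends before the start site and leaves out a TATAAA word, and at SNHG31 it also stops short of the start. No base of the corresponding GAS5 sequence was in a peak. Only the outermost start of GAS5 was used here, and starts further inside its record were not examined. The GAS5 peaks lay inside the record, on the promoter of ZBTB37, of which 285 bases lay in both, and its sequence is printed for that reason.
ZBTB37 (chr1:173868130-173868429, plus strand): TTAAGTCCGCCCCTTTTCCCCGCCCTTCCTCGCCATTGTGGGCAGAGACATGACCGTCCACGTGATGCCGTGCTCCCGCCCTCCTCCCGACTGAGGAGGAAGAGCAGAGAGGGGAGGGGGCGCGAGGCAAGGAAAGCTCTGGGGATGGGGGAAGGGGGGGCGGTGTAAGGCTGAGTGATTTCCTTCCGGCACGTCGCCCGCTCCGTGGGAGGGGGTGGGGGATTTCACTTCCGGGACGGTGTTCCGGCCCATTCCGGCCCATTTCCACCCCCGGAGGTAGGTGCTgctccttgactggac

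Many host genes lie beside a coding gene's 5′ end, and a peak there cannot be assigned to either gene. Of the 31 host genes, 14 had such an end within 1 kb, 9 on the opposite strand and 5 on the same strand. Both PRMT6 and PARP1 peaks were present at 6 of the 9 with an opposite neighbour (66.7%, 29.9% to 92.5%), against 18.8% of the 2030 lncRNA genes with an opposite coding neighbour. These 6 were SNHG1 with SLC3A2, a subunit of amino acid transporters (−224 bp), SNHG10 with GLRX5, which serves iron-sulfur cluster assembly (−178 bp), SNHG19 with the ubiquitin ligase gene TRAF7 (−424 bp), SNHG31 with BARD1, the partner of BRCA1 (−546 bp), ZFAS1 with ZNFX1 (−121 bp), and GAS5 with ZBTB37 (963 bp inside the record). All 6 belong to the stronger set. The 3 without a peak were SNHG9 beside RPS2, SNHG18 beside SEMA5A and SNHG22 beside ACAA2.

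Both peaks at SNHG1 covered the 5′ end of SLC3A2, both at SNHG10 that of GLRX5 and both at GAS5 that of ZBTB37. The PARP1 peak at ZFAS1 reached the end of ZNFX1 and the PARP1 peak at SNHG3 that of RCC1, while the PRMT6 peaks at these genes did not. Of the 5 hosts with a coding neighbour on the same strand, SNHG3 (RCC1, 100 bp) had both peaks and SNHG4 (MATR3, the same base) had a PARP1 peak. SNHG7, SNHG14 (SNRPN, 29 bp) and SNHG20 (SEC14L1, 42 bp) had none.

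The 17 host genes without a coding 5′ end within 1 kb still had peaks. PRMT6 was found at 5 (29.4%, 10.3% to 56.0%), against 4.66% of the 10722 lncRNA genes without one, and PARP1 at 6 (35.3%, 14.2% to 61.7%), against 6.48%. The 4 with both were SNHG5, SNHG15, SNHG25 and SNHG29, of which SNHG25 and SNHG29 belong to the stronger set.

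**Figure D3:**
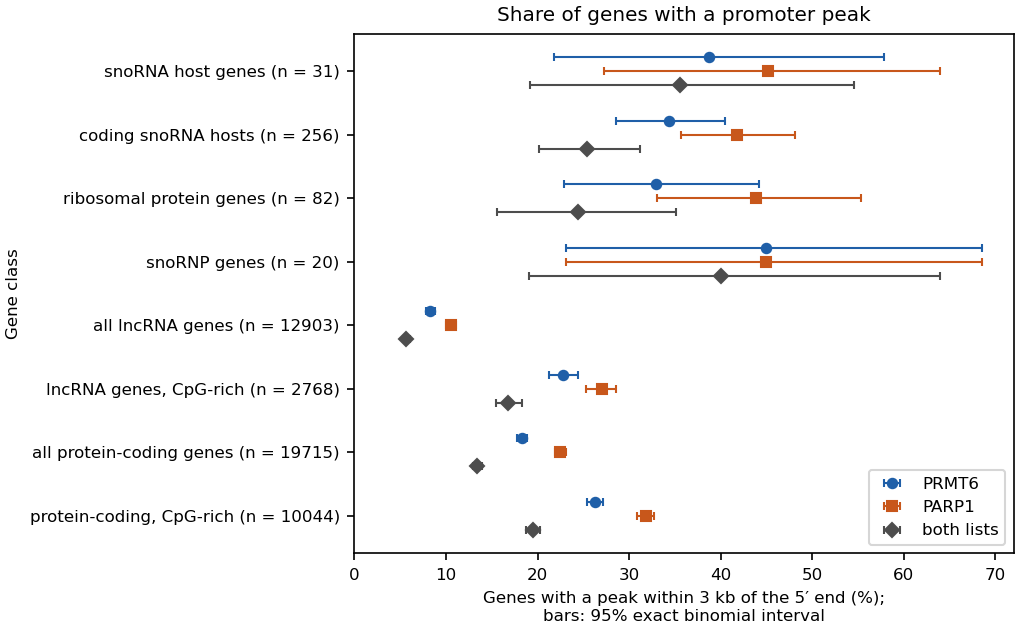
Share of genes with a peak within 3 kb of the 5′ end, in percent, for PRMT6 (circles), PARP1 (squares) and both lists (diamonds) in 8 gene classes, with bars for the 95% exact binomial interval. The 31 host genes lie above all lncRNA and all protein-coding genes. Their intervals overlap those of coding snoRNA hosts, ribosomal protein genes, snoRNP genes and CpG-rich protein-coding genes. They overlap those of CpG-rich lncRNA genes for PRMT6 and for PARP1, and lie above them for both lists. CpG-rich host genes alone are not drawn.

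Most host genes have CpG-rich promoters, and such promoters held more peaks among lncRNA genes, with PRMT6 at 22.8% of CpG-rich and 3.97% of other promoters. Of 27 host genes with a RefSeq promoter sequence, 23 had an observed over expected CpG of at least 0.6 and at least 50% GC. PRMT6 peaks were found at 9 of these 23 (39.1%, 19.7% to 61.5%), against 22.8% of the 2768 lncRNA genes and 26.3% of 10044 protein-coding genes with the same property. PARP1 peaks were found at 11 (47.8%, 26.8% to 69.4%), against 27.0% and 31.8%. Both were found at 8 (34.8%, 16.4% to 57.3%), against 16.8% and 19.5%. Each host gene interval contained the shares of CpG-rich lncRNA and protein-coding genes, with the PARP1 share of lncRNA genes just above the lower bound. The difference from other lncRNA genes was thus not resolved among CpG-rich promoters with 23 host genes. Of the 13 CpG-rich host genes without a coding 5′ end within 1 kb, 3 had a PRMT6 peak (23.1%, 5.04% to 53.8%), against 13% of such lncRNA genes.

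Within the host genes, CpG content overlapped widely between those with and without peaks. The 9 with both peaks and a sequence ran from 0.50 (GAS5) to 1.20 (SNHG5) with a median of 0.87. The GAS5 value belongs to the outermost start, whose sequence lay outside both peaks. The 4 with a peak in 1 list ran from 0.67 to 1.03, and the 14 without a peak from 0.46 (SNHG14) to 1.17 (SNHG17) with a median of 0.73. GC content was also alike, with medians of 60.0% and 62.5% for host genes with both and with none. SNHG17, SNHG8 and SNHG7 had CpG values of 1.17, 1.05 and 1.02 and no peak in either list.

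**Figure D4:**
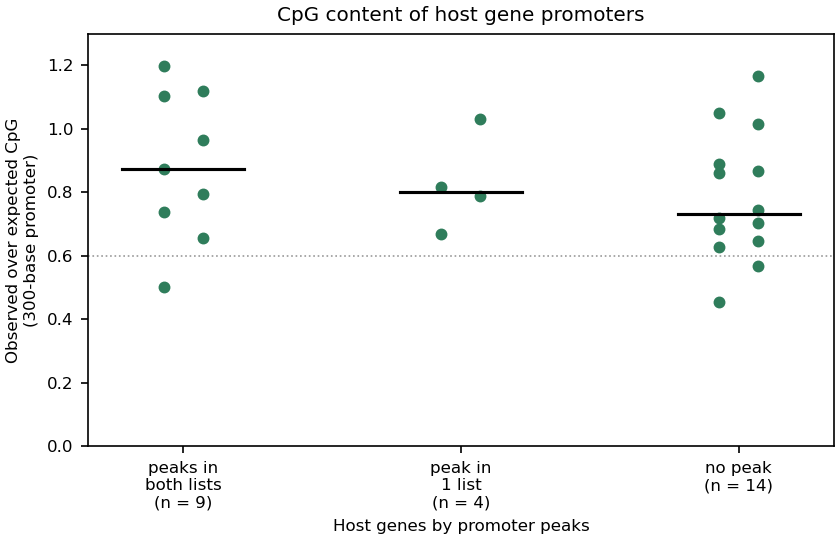
Observed over expected CpG in the 300-base promoter of the 27 host genes with a sequence, grouped by promoter peaks, with 1 point per gene and a bar at the median; the dotted line is at 0.6. Medians are 0.87 with peaks in both lists, 0.80 with a peak in 1 list and 0.73 without a peak, and the ranges overlap.

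The host genes held 147 snoRNA records in all, 121 C/D, 22 H/ACA and 4 scaRNA, counted without regard to strand, and 83 of them lie in SNHG14, the long imprinted transcript of the Prader-Willi region. Hosts with mostly C/D records had a PRMT6 peak at 8 of 14 (57.1%, 28.9% to 82.3%) and hosts with mostly H/ACA records at 3 of 11 (27.3%, 6.0% to 61.0%). PARP1 peaks were found at 8 of 14 and at 5 of 11 (45.5%, 16.7% to 76.6%). These intervals overlapped. Of the 4 scaRNA hosts only SNHG10 had peaks, while SNHG20, SNHG21 and SNHG22 had none. A peak in either list was present at 48.4% of host genes, 13.2% of lncRNA genes and 27.3% of protein-coding genes. It was present at 6 of 8 hosts with 3 or more records (34.9% to 96.8%) and at 9 of 21 with 1 or 2 records (21.8% to 66.0%), and these intervals overlapped. SNHG27 and SNHG28, which hold no annotated snoRNA record, had none.

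Few snoRNA records lay under a peak, inside or outside the host genes. Of the 147 records in host genes 1 lay under a PRMT6 peak (0.68%, or 1.56% without SNHG14) and the same one under a PARP1 peak, against 0.698% (PRMT6) and 0.873% (PARP1) of all 573 records. It was SNORD104 (chromosome 17, 64146078 to 64146157), which begins 108 bp from the 5′ end of SNHG25, so that both peaks at that end reached into it. Of 344 records in protein-coding genes, 1 lay under a PRMT6 peak and 2 under a PARP1 peak. Beyond the promoter window, 7 peaks lay in the bodies of 6 host genes, and none of them covered a snoRNA record. They were PARP1 peaks in SNHG4, SNHG22, SNHG28 and SNHG29, a PRMT6 peak in SNHG17 and a peak of each list in SNHG26. Their score percentiles ran from 7.02 (SNHG29) to 63.0 (SNHG17). No share of other genes with a peak in the body is given here, so the count cannot be read as many or few. In SNHG26 the PRMT6 peak (chromosome 7, 22859048 to 22859336) and the PARP1 peak (22859015 to 22859379) overlapped, with centres 4952 bp and 4957 bp from the 5′ end and ranks of 7845 and 9685.

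No promoter peak of either list was found at SNHG6, SNHG7, SNHG8, SNHG9, SNHG11, SNHG14, SNHG17, SNHG18, SNHG20, SNHG21, SNHG22, SNHG26, SNHG27, SNHG28, SNHG32 or SNHG33. Within 10 kb of the 5′ end lay the body peaks of SNHG17 (PRMT6, 8882 bp downstream), SNHG28 (PARP1, 5807 bp) and SNHG26 (PRMT6 4808 bp, PARP1 4775 bp) and, at SNHG32, which lies near HSPA1B, peaks 7128 bp (PRMT6) and 7042 bp (PARP1) upstream. SNHG8, the host of SNORA24, was the farthest from any peak among hosts with a CpG value above 1, with the nearest PRMT6 peak 1324610 bp and the nearest PARP1 peak 824663 bp away. Its promoter is printed as that of a CpG-rich host without a peak, with the word GCGCATGC, part of the site of the factor NRF1, in capitals.
SNHG8 (chr4:118278512-118278811, plus strand): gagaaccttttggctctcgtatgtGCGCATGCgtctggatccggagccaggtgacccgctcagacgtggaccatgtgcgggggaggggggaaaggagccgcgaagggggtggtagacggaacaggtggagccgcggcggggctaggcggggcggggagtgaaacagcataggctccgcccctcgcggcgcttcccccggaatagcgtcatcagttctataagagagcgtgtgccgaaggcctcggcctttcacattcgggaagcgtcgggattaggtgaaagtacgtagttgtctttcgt

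Short words were searched in the 27 host promoters on both strands. The NRF1 word GCGCATGC was present at 4 (14.8%), against 1.91% of 11461 lncRNA promoters and 3.27% of all 27303 promoters of the same length. It was present at 3.45% of 203 promoters of protein-coding genes that hold a snoRNA and at 4.48% of 67 ribosomal protein promoters. Promoters of matched CpG content were not compared, and the share rests on 4 genes. These 4 were SNHG1 (bases −193 to −186 from the start site) and SNHG3 (bases 13 to 20), which had both peaks, and SNHG8 and SNHG27, which had none. TATAAA was present at 4 (14.8%, against 15.2% of lncRNA promoters and 12% of all promoters), namely SNHG1, SNHG7, SNHG11 and SNHG19. The E-box CACGTG, to which the clock factors and MYC bind, was present at SNHG7 and SNHG30 (7.41%, against 5.44% and 7.44%), and the ETS word CCGGAAG at SNHG20 and SNHG26 (7.41%, against 5.74% and 10.7%). The words TGACGTCA and CTCGCGAG, of the CREB and BANP sites, were present at 0 of 27, and at only 1.13% and 0.41% of lncRNA promoters and 1.98% and 1.06% of all promoters.

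A pyrimidine start, meaning a C at the first base followed by at least 4 further pyrimidines, was present at 7 of the 27 (25.9%), against 3.27% of lncRNA promoters and 65.7% of 67 ribosomal protein promoters. Among protein-coding genes that hold a snoRNA it was present at 36 of 203 promoters (17.7%), and the difference was not tested. The 30 bases from 10 before the start site are shown with the run of pyrimidines from the first base in capitals.
SNHG19: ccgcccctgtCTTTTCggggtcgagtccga
SNHG5: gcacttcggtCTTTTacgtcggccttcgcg
ZFAS1: gccattcgttCTTTCgcgtctgcggtgccc
SNHG12: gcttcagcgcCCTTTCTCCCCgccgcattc
SNHG4: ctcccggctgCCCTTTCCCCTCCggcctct
SNHG32: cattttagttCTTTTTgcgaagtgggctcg
SNHG18: gccgcgccgcCTCCTCCTCCTCCTCCTCCC

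Of these 7, SNHG19, SNHG5 and ZFAS1 had peaks of both lists, SNHG12 and SNHG4 a PARP1 peak, and SNHG32 and SNHG18 none. The run at SNHG18 is a repeat of CTC, unlike those of the other 6. SNHG29, SNHG10, SNHG31 and SNHG1, which had strong peaks, did not meet the criterion. Under another criterion, a run of 6 pyrimidines that opens with C within 10 bases of the start, 12 of 27 host promoters (44.4%) qualified against 20.2% of lncRNA promoters, and 6 of the 12 had a peak. The share was 33% for protein-coding genes that hold a snoRNA and 77.6% for ribosomal protein genes. SNHG29 and SNHG31 were among the 12 host promoters, whereas SNHG10 and SNHG1 were not. Nor were SNHG5 and ZFAS1, whose runs are 5 bases long.

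Related genes are protein-coding hosts, ribosomal protein genes, genes of snoRNA particles (snoRNPs) and other lncRNA genes that hold a snoRNA. Protein-coding genes that hold a snoRNA record had a PRMT6 peak at 88 of 256 (34.4%, 28.6% to 40.5%) and a PARP1 peak at 107 (41.8%, 35.7% to 48.1%), with both at 65 (25.4%, 20.2% to 31.2%). Among the best ranked of them were KAT6B, an acetyltransferase gene (ranks 14 and 56), the chaperone gene HSPA8 (69 and 267), DGLUCY (260 and 98), ATP5F1B (136 and 251) and SEC31A (306 and 807). Ribosomal protein genes had PRMT6 peaks at 27 of 82 (32.9%, 22.9% to 44.2%) and PARP1 peaks at 36 (43.9%, 33.0% to 55.3%), and the 29 among them that hold a snoRNA gave 34.5% and 44.8%. Among the best ranked were RPL18 (1123 and 144), RPL27 (1358 and 162), RPL41 (426 and 1508), RPL23A (527 and 2599) and RPS24 (1786 and 1699). The host genes' intervals contained all of these shares. Another 23 lncRNA genes that hold a snoRNA record but carry other symbols had PRMT6 peaks at 5 (21.7%, 7.46% to 43.7%). They had PARP1 peaks at 5 (21.7%, 7.46% to 43.7%) and both peaks at 2 (8.70%, 1.07% to 28%). These shares lay below the lower bounds of the 31 host genes, which were 21.8%, 27.3% and 19.2%. The intervals of the host genes and of these genes overlapped, and the differences were not tested.

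Of 20 genes for snoRNP proteins and their assembly factors, 9 had a PRMT6 peak (45.0%, 23.1% to 68.5%), 9 a PARP1 peak and 8 both. Among the core proteins of C/D particles, NOP58 had a PRMT6 peak, and FBL, the methyltransferase, NOP56 and SNU13 had none. Among the core H/ACA proteins, DKC1, the pseudouridine synthase, and NHP2 had both, and NOP10 and GAR1 had none. The assembly factors PIH1D1 (ranks 404 and 341), RUVBL2 (1124 and 942) and NOLC1 (1635 and 1737) had the best ranks, and RUVBL1, RRP9 and ZNHIT6 also had both peaks. Neither list had a promoter peak at COIL, NAF1, NUFIP1, SHQ1 or ZNHIT3, and TGS1 had a PARP1 peak only.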

How the data were processed

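PRMT6 and PARP1 libraries of MDA-MB-231 cells, 1 of each, were grouped by the labelled antibody. CUT&Tag is given by the methods, and the labels also describe ligation of adaptors to immunoprecipitated DNA, so the chemistry is uncertain. The submitters' processing notes name CASAVA 1.4, Bowtie 0.12.8, MACS, MACS2 and hg19. Thresholds, duplicate handling and a control library are not given in the sources used here. The deposited lists give chromosome, start, end and a score, read as −log10 of a p-value assigned in peak calling, which is not comparable in size between libraries. Depth is not known.

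The positions were tested against both builds. Peaks within 1 kb of a coding 5′ end made up 30.1% (PRMT6) and 29.4% (PARP1) with GRCh38 records and 4.04% and 3.94% with GRCh37 records, so RefSeq records of GRCh38.p14 were used. Strand came from the RefSeq promoter sequences or from the GENCODE release 44 gene of the same name. It was not found for 5400 lncRNA and 318 protein-coding records, which were left out. Promoters, snoRNA records and neighbours were assigned with pandas 2.3.3 and numpy 2.4.6 (Python 3.11.15), and intervals were taken from scipy 1.17.1. The window search was tested on simulated peaks. Members, lists and settings were chosen with earlier results of these data known. All host genes are named, and of other lists the genes with both peaks and the best mean rank, at most 6, of which 1 gene is not reported here. Sequences follow the same rank, at most 8. The ZBTB37 and SNHG8 sequences, shown in addition, were chosen after values were seen, and the pyrimidine and CpG cutoffs were set with the data at hand. RefSeq promoter sequences existed for 27 of 31 host genes. Ribosomal protein genes were taken by symbol, and the snoRNP list, given in full, from general knowledge. Alternatives covered the window, score, list length, smallest peaks, members, start site and overlap rule.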

Additional observations from a re-analysis of the deposited data

How the results depend on the processing

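Each share recomputed under another setting stayed within the 95% interval of the share it replaced. The settings reuse the same genes and peaks and the intervals are wide, so that outcome was likely from the start. It does not test the contrast with the background. The PRMT6 share ran from 29.4% to 41.4%, the PARP1 share from 32.3% to 48.3% and the share with both from 23.5% to 37.9%. The median percentile ran from 82.8 to 83.9 for PRMT6 and from 81.1 to 83.4 for PARP1, mostly over the same genes. With the lower-scoring 50% of peaks left out, 25.8% of host genes had both, against 3.72% of lncRNA and 8.99% of protein-coding genes. Host genes without a coding 5′ end within 1 kb (23.5% with both) and the list without GAS5 and ZFAS1 (31% with both) were added after the data were seen. With 31 genes the intervals are wide, and 4 of the 14 PARP1 calls (SNHG4, SNHG5, SNHG12 and SNHG30) and 2 of the 12 PRMT6 calls (SNHG3 and SNHG15) rest on peaks below the median score of their list. No paired analysis was possible because there was 1 sample for each antibody.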
